A study of Homo sapiens with 6 samples.

Results

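The family of miR-130, miR-301 and miR-454 was followed through the small RNA libraries of HEK293T cells, a human embryonic kidney cell line. Its 7 members, hsa-miR-130a-3p, hsa-miR-130b-3p, hsa-miR-130b-5p, hsa-miR-301a-3p, hsa-miR-301a-5p, hsa-miR-454-3p and hsa-miR-454-5p (hsa, for human, is left out below), were taken by name from the 2588 miR names of the count table. The libraries came from 3 samples after knockdown (KD) of RPL24, a protein of the large ribosomal subunit, and 3 negative controls (NC). KD cells received siPOOLs against RPL24 and NC cells non-targeting siPOOLs, both at 50 nM, and all were harvested 72 h later. The protocol in the labels adds a miR-608 plasmid for both groups 48 h after the siPOOLs, that is 24 h before harvest, but the study describes the sequencing as an experiment of its own, and all 6 libraries were at 0 counts for miR-608. The comparison of RPL24 KD with NC asks which mature miRs change when RPL24 is depleted. Small RNA reads do not show the RPL24 mRNA, so the depletion itself was not checked in these libraries.

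A miR hairpin is cut by DROSHA and then by Dicer into a duplex of a 5p and a 3p strand, and usually one strand is loaded into the silencing complex while the other is lost. The loaded strand finds its target mRNAs mainly through its seed, bases 2 to 8. The 3p strands of this family share their seed and are therefore predicted to bind many of the same mRNAs. The family is widely studied in cell proliferation and in tumours.

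RefSeq (GRCh38.p14) gave mature sequences for 6 of the 7 members. None was at hand for miR-130a-3p, so the counts of names by sequence below leave it out. The 3p strands are shown first, 5′ to 3′ with the seed in capitals, because their shared seed defines the family. MiR-301b-3p, from the hairpin beside miR-130b, is added as a near copy of miR-301a-3p.
miR-130b-3p: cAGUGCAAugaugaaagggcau
miR-301a-3p: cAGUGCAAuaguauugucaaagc
miR-454-3p: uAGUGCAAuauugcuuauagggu
miR-301b-3p: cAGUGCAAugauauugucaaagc

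All 4 have the seed AGUGCAA, which 6 of the 2281 names of the table with a RefSeq sequence carry at bases 2 to 8. The other two are miR-3666 and miR-4295. Beyond the seed the members part. Counted from 1 at the 5′ end, miR-301a-3p and miR-301b-3p differ at 2 of 23 positions (A10G and G11A, miR-301a-3p first). MiR-130b-3p and miR-301a-3p differ at 11 of the 22 positions compared, and miR-130b-3p and miR-301b-3p share their first 12 bases. How reads that match several miRs were counted is not given in the sources used here, so the split of counts between miR-301a-3p and miR-301b-3p is uncertain.

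The 5p strands are shown for contrast, again with bases 2 to 8 in capitals, because they turned out to hold most of the family's reads.
miR-130b-5p: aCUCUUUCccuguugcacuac
miR-301a-5p: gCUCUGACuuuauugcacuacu
miR-454-5p: aCCCUAUCaauauugucucugc

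Each 5p strand has a seed of its own, so the 5p strands form no seed family with each other or with the 3p strands. MiR-130b-5p and miR-301a-5p hold UUGCACU, the exact reverse complement of the family seed, from base 13. MiR-454-5p does not hold these letters.

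The hairpin genes lie at 3 loci (GENCODE 29 on GRCh38). MIR454 (chr17:59137758-59137872) and MIR301A (chr17:59151136-59151221) are on the minus strand of chromosome 17, in intron 1 of the 10 transcripts of SKA2 that cover each of them. SKA2 encodes a protein of the spindle and kinetochore complex. Between these hairpins lie 13263 bases. MIR301B (chr22:21652981-21653058) and MIR130B (chr22:21653304-21653385) are on the plus strand of chromosome 22 with 245 bases between them. In the non-coding transcript AP000553.1, MIR301B is intronic and MIR130B lies in an exon. MIR130A (chr11:57641198-57641286, plus strand) is in intron 1 of the 2 transcripts of AP000662.1.

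The libraries held from 398721 to 611745 counts. The authors deposited raw counts, which are given here as CPM, counts scaled to a common depth with TMM factors. Libraries are named by the numbers of the labels, and the column of each group whose number matches no label is called unnumbered. The smallest amount taken as detectable, 3 counts in a library, equals from 4.90 to 7.52 CPM and covers counting error only. This floor was scaled by total counts without the TMM factors, so it differs slightly from the scale of the other CPM values. The mature members are of nearly equal length (21 to 23 bases), so reads were not divided by length. Libraries of a group differed by more than counting noise, with a chi-square per degree of freedom of 2.49 to 2.87 among RPL24 KD pairs and 11.7 to 22.1 among NC pairs. Nothing in the labels says that the libraries came from separate cultures, so p-values measure the spread between these libraries, which may be technical. Of 10 miRs that mark blood, liver, muscle or neurons, 2 (miR-223-3p and miR-206) were at 0 in every library. The markers summed to 107 to 166 counts per RPL24 KD library and 158 to 212 per NC library, nearly all of them from muscle markers (106 to 164 and 146 to 210). The muscle miR-1-3p stood at -0.40 on the log2 scale relative to NC (adjusted p = 0.0557, edgeR). The muscle miR-133a-3p had 2, 4 and 2 counts in RPL24 KD and 7, 7 and 7 in NC. For the neuronal miR-124-3p the counts were 0, 1 and 0 in RPL24 KD and 1, 8 and 6 in NC. Blood markers summed to 0 to 3 counts per RPL24 KD library and 0 to 4 per NC library, and the liver marker to 0 to 1 and 0 to 2. The part of these markers in the results on the family was not tested.

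In the reads of these HEK293T libraries the family appeared mainly as miR-130b-5p. Whether reads of different sequences compare as amounts in the cells was not tested, here and for the arm ratios below. This strand had 1823, 2027 and 1929 CPM in RPL24 KD libraries 1, 2 and unnumbered, and 1952, 1950 and 1892 CPM in the NC libraries in the same order. It was even across the 6 libraries and took from 72.0% to 77.5% of the reads of the 7 members. The next member, miR-454-3p, had a mean of 312 ± 44.5 CPM (SD, n = 6). MiR-301a-5p followed with 143 ± 15.1 CPM (SD, n = 6) and miR-454-5p with 107 ± 14.4 CPM (SD, n = 6). MiR-130b-3p had 75.1 ± 13.2 CPM (SD, n = 6) and miR-301a-3p 22.3 ± 4.72 CPM (SD, n = 6). In this order each level was separate from the next across all 6 libraries, except that the ranges of miR-454-5p (lowest 83.2 CPM) and miR-130b-3p (highest 90.2 CPM) overlapped. MiR-454-5p had more counts than miR-130b-3p in 5 of the 6 libraries.

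MiR-130a-3p was at the limit of detection. Its raw counts were 2, 2 and 0 in RPL24 KD libraries 1, 2 and unnumbered, and 1, 3 and 2 in the NC libraries. No library exceeded the floor of 3 counts, so no fold change is given for it. Over the 6 libraries miR-130b-3p had 229 counts against 10 of miR-130a-3p, a ratio of 22.9 (95% exact interval from counting, 12.2 to 48.4). How reads that match both names were counted is not given either, and the interval does not cover it. The log2 of this ratio in single libraries depends on the pseudocount, with a difference between groups of 0.99 when 0.5 counts were added and 0.77 when 1 was added, and from 0.31 to 1.40 when a library was left out. No change is read from it.

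**Figure D1:**
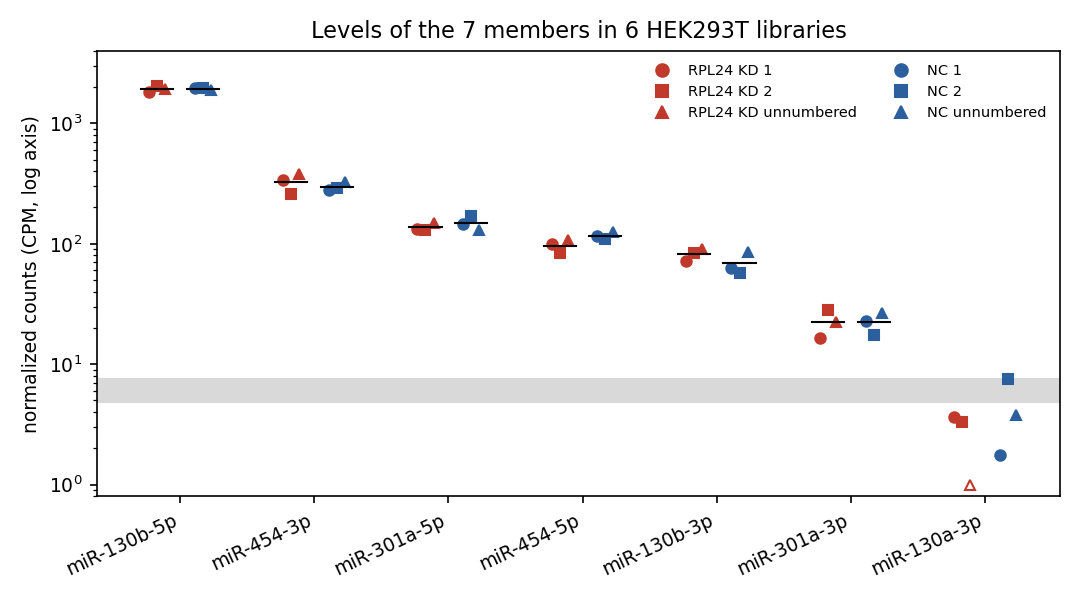
Normalized counts (CPM, log axis) of the 7 members in each RPL24 KD (red) and NC (blue) library, with group means as bars except for miR-130a-3p. The open symbol marks a library with 0 counts, drawn at 1 CPM. The grey band spans the floor of 3 counts (4.90 to 7.52 CPM, by total counts without TMM factors). MiR-130b-5p lies at 1823 to 2027 CPM and miR-130a-3p at 0 to 7.50 CPM.

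The remaining names of the family were low as well. MiR-301b-3p had from 8 to 16 raw counts in a library and miR-301b-5p from 2 to 5. MiR-130a-5p, miR-3666 and miR-4295 had 0 counts in each of the 6 libraries, below the floors given above. The 4 members of the 3p arm together reached from 366 to 494 CPM. For comparison, the family of miR-148 and miR-152 has the seed CAGUGCA, which holds the first 6 letters of the family seed shifted by a base (miR-148a-3p: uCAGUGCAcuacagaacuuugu). Its 3 strands miR-148a-3p, miR-148b-3p and miR-152-3p together reached from 125358 to 150571 CPM, from 284 to 404 times as much as the 3p members of the same library.

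For 5 of the 7 members, the spread over the 6 libraries was close to what counting alone gives. MiR-130b-5p varied by 3.52% (coefficient of variation), where its counts alone give 3.24%. The values were 17.6% and 16.4% for miR-130b-3p, 10.5% and 11.9% for miR-301a-5p, 13.5% and 13.8% for miR-454-5p, and 75.0% and 78.5% for miR-130a-3p. MiR-301a-3p varied less than its counting error (21.1% against 29.9%). MiR-454-3p was the exception on the other side, with 14.3% against 8.10%.

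No member passed the test between RPL24 KD and NC. Of the 7, 6 passed the filter on low counts (edgeR filterByExpr, minimum count 10) and miR-130a-3p did not. None of the 6 was called at an adjusted p under 0.05 in edgeR's quasi-likelihood test with Benjamini-Hochberg adjustment over all 360 miRs tested, where 18 were called (5.00%). Of those 18, 12 were higher (3.33% of the tested miRs) and 6 lower (1.67%), and with total counts in place of TMM 10 were higher and 18 lower. At an unadjusted p under 0.05 there were also 0 members, beside 85 of all tested miRs (23.6%). DESeq2 and limma voom called 0 of the members too, also at an unadjusted p under 0.05. Of the 6 members, 2 had a log2 fold change above 0, as did 47.2% of all tested miRs, and 4 below, of which miR-130b-5p and miR-301a-3p passed to just above 0 with RLE scaling. Their median was 0.00 and their range from -0.30 to 0.22, beside a median of -0.01 over all tested miRs. In these pooled cells, a lower level in every cell and fewer cells with the miR cannot be told apart.

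Among the 3p members, miR-130b-3p had 71.3, 83.2 and 90.2 CPM in RPL24 KD libraries 1, 2 and unnumbered, and 63.0, 57.5 and 85.3 CPM in NC. The unnumbered NC library lay within the RPL24 KD range, so the groups overlapped. The log2 fold change was 0.22 (SE 0.202, 95% interval -0.21 to 0.65, adjusted p = 0.571, edgeR).

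MiR-454-3p had 336, 260 and 381 CPM in RPL24 KD and 278, 290 and 326 CPM in NC. RPL24 KD held both the lowest and the highest library. The log2 fold change was 0.11 (SE 0.140, 95% interval -0.19 to 0.41, adjusted p = 0.711, edgeR), and it was -0.010 without the unnumbered RPL24 KD library.

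MiR-301a-3p had 16.5, 28.3 and 22.5 CPM in RPL24 KD and 22.7, 17.5 and 26.5 CPM in NC. These values rest on 7 to 17 raw counts each, and the groups covered the same range. The log2 fold change was -0.0031 (SE 0.348, adjusted p = 0.997, edgeR), and the 95% interval ran from -0.75 to 0.74, so changes of this size were not detectable at this depth.

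Among the 5p members, miR-130b-5p was measured most precisely. Its mean was 1926 ± 102 CPM (SD, n = 3) in RPL24 KD and 1931 ± 34.1 CPM (SD, n = 3) in NC. The log2 fold change was -0.0032 (SE 0.0727, adjusted p = 0.991, edgeR), with a 95% interval from -0.16 to 0.15. The 3 miRs outside the family whose log2 CPM, centred on the mean of the 6 libraries, lay closest to that of miR-130b-5p were miR-484, miR-221-3p and miR-28-3p. Their root-mean-square differences were 0.0415, 0.0417 and 0.0508, beside a median of 0.200 over the 354 miRs compared.

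MiR-301a-5p had 133, 131 and 148 CPM in RPL24 KD and 147, 170 and 131 CPM in NC. NC library 2 stood highest and the other NC libraries lay within or next to the RPL24 KD range. The log2 fold change was -0.11 (SE 0.147, 95% interval -0.43 to 0.20, adjusted p = 0.711, edgeR), and it was 0.0011 without NC library 2.

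MiR-454-5p had 98.7, 83.2 and 108 CPM in RPL24 KD and 115, 110 and 125 CPM in NC. Every RPL24 KD library lay below every NC library, with 108 and 110 CPM as the nearest values. It was the only one of the 6 members whose groups did not overlap, beside 27.5% of all tested miRs in either direction and 12.8% in the lower direction. The log2 fold change was -0.30 (SE 0.162, 95% interval -0.65 to 0.05, adjusted p = 0.306, edgeR), the largest in size among the 6 members tested.

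**Figure D2:**
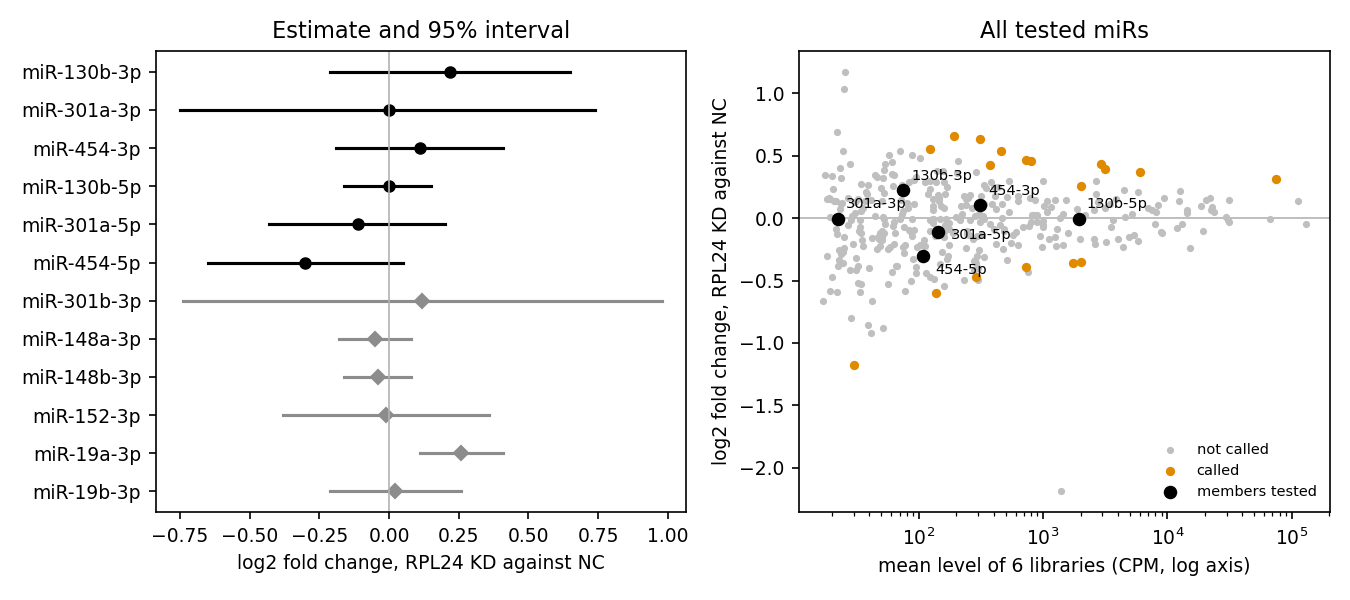
Left, fold change after RPL24 KD relative to NC (log2) with its 95% interval for the 6 tested members (black circles) and 6 related miRs (grey diamonds). Right, the log2 fold change of all 360 tested miRs against their mean level (CPM, log axis), with the 18 called miRs in orange and the members in black; the members lie between -0.30 and 0.22, and the intervals of all 6 include 0.

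MiRs with part of the family seed were read from the same fit. MiR-148a-3p stood at -0.05 (log2 fold change, SE 0.0615, adjusted p = 0.711, edgeR), and miR-148b-3p, miR-152-3p and miR-301b-3p were not called either (adjusted p = 0.711, 0.991 and 0.900, edgeR). The hexamer GUGCAA, part of the family seed, stands within the first 9 bases of 9 of the 2281 names with a sequence (0.395%), searched as written on the mature strand. Of these 9, 6 were tested: the 3 tested 3p members, miR-301b-3p, miR-19a-3p and miR-19b-3p. MiR-19a-3p (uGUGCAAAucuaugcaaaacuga), of the miR-17-92 cluster, had 2103, 2226 and 2275 CPM in RPL24 KD and 1802, 1837 and 1869 CPM in NC. It rose by 0.26 on the log2 scale (SE 0.0707, adjusted p = 0.0487, edgeR). The call held in 9 alternative settings, among them DESeq2's default filtering (adjusted p = 0.0198) and limma voom (adjusted p = 0.044), and was lost in 8. Among the losses were total counts (adjusted p = 0.0900, edgeR). The call was also lost without any single library (adjusted p from 0.0542 to 0.180, edgeR), except the unnumbered NC library. MiR-19b-3p, with the same seed GUGCAAA, had 0.02 (SE 0.110, adjusted p = 0.928, edgeR). RefSeq places miR-19b-3p at MIR19B1 on chromosome 13 and at MIR19B2 on chromosome X. Its sequence is nearly that of miR-19a-3p, so the split of counts between these strands is uncertain as well.

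The arms of the 3 hairpins with both strands among the members were then compared within each library, which needs no scaling between libraries. In miR-130b the 5p strand had more reads in all 6 libraries, by 21.1 to 33.2 times. In miR-301a the 5p strand also had more reads in all 6, by 4.54 to 9.13 times. In miR-454 the 3p strand led in all 6, by 2.40 to 3.51 times. So the hairpins miR-301a and miR-454, which share intron 1 of SKA2, had opposite leading strands. The hairpin miR-301b had 70 counts of the 3p and 22 of the 5p strand over all libraries. By these counts it differed in its leading strand from its neighbour miR-130b. The split of counts between miR-301a-3p and miR-301b-3p is uncertain, and with it this difference. A leading 5p strand was common, with 113 of the 203 hairpin names that had at least 60 counts in both arms together (55.7%). MiR-130b stood at place 62, miR-301a at place 94 and miR-454 at place 126 of these 203 when ordered from the lowest 3p to 5p ratio, and miR-148a, where the 3p strand led by 130 times, at place 187.

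**Figure D3:**
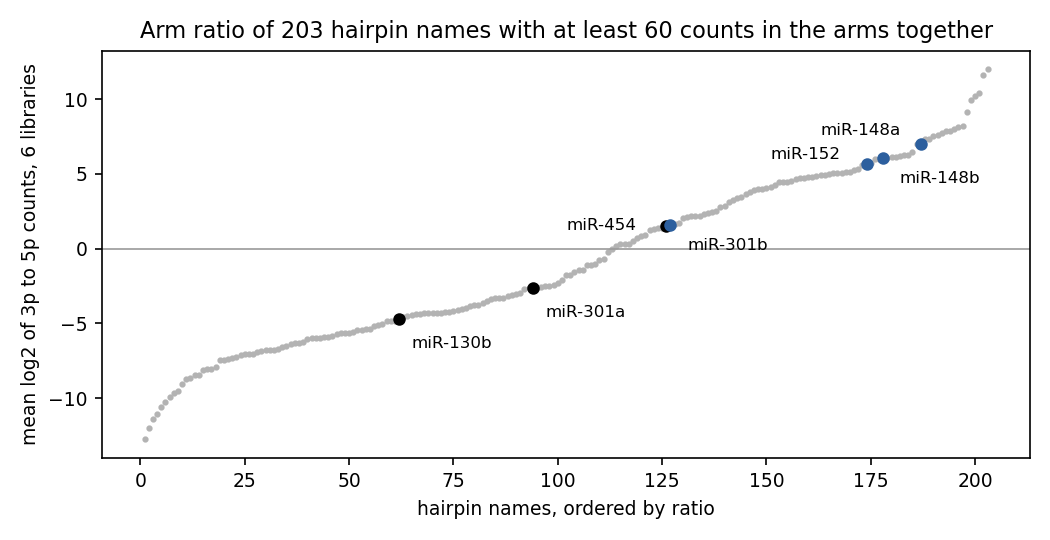
Mean log2 of the 3p to 5p count ratio over the 6 libraries for 203 hairpin names, ordered from lowest to highest. The member hairpins (black) stand at -4.68 for miR-130b, -2.65 for miR-301a and 1.54 for miR-454, with miR-301b and the hairpins of miR-148 and miR-152 in blue; values below 0 have more 5p than 3p reads.

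Between the groups, the balance of the arms of miR-454 was the one that separated. The log2 of its 3p to 5p ratio was 1.76, 1.63 and 1.81 in RPL24 KD libraries 1, 2 and unnumbered, and 1.26, 1.39 and 1.38 in NC. All RPL24 KD libraries lay above all NC libraries. The difference was 0.39 (SE 0.07), with an exact permutation p = 0.1 (two-sided, n = 3 per group), the smallest that 3 libraries against 3 allow, and p = 0.5 after Benjamini-Hochberg adjustment over the 5 ratios computed, that to miR-130a-3p included. Leaving out any single library gave differences from 0.35 to 0.44. Of the 203 hairpin names, 15 (7.39%) had groups that did not overlap in this ratio, 9 of them (4.43%) higher in RPL24 KD. The counts behind it were 492 of the 3p and 147 of the 5p strand in RPL24 KD, and 447 and 176 in NC. Counting alone gives a single library's log2 ratio an error of 0.21 to 0.25, more than the SD of 0.09 within RPL24 KD and 0.07 within NC. From the summed counts the difference was 0.40 with a counting error of 0.187, which is larger than the SE between libraries.

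The arms of the other hairpins did not separate. For miR-130b the log2 3p to 5p ratio was -4.55 ± 0.13 (SD, n = 3) in RPL24 KD and -4.81 ± 0.32 (SD, n = 3) in NC, so they differed by 0.26 (SE 0.20, exact permutation p = 0.3). The unnumbered NC library, at -4.46, lay within the RPL24 KD range. For miR-301a the difference was 0.11 (SE 0.35, exact permutation p = 0.8), and it turned negative without RPL24 KD library 2 (-0.10) or without NC library 2 (-0.14).

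**Figure D4:**
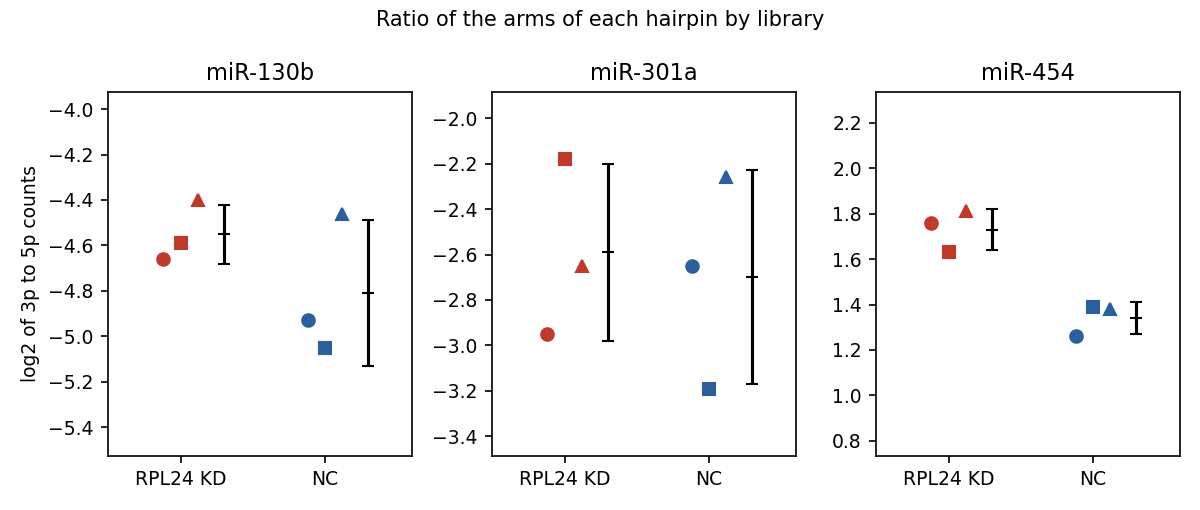
Log2 of the 3p to 5p count ratio of each hairpin by library, RPL24 KD in red and NC in blue, with circles, squares and triangles for libraries 1, 2 and unnumbered and bars for the mean and SD (n = 3). Each panel spans the same range on the log2 scale; in miR-454 the RPL24 KD libraries lie at 1.63 to 1.81 and the NC libraries at 1.26 to 1.39.

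The strands that share SKA2 were compared last. MiR-301a-3p had 69 counts against 939 of miR-454-3p over all libraries, and the log2 of their ratio was -3.82 ± 0.58 (SD, n = 3) in RPL24 KD and -3.70 ± 0.23 (SD, n = 3) in NC. The difference, -0.12 (SE 0.36, exact permutation p = 0.8), was smaller than the spread within RPL24 KD and turned to 0.11 without RPL24 KD library 1.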

How the data were processed

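Read quality was checked with FastQC by the authors, who used Flexbar for trimming and filtering and miRExpress for alignment to miRBase. They deposited raw, unnormalized read counts for each mature miR. The depth was 398721 to 611745 counts per library. Samples were grouped by their titles. The table's columns carry the numbers 1 and 2 of the labels, and the remaining column of each group was used without a number.

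RPL24 KD was compared with NC over all 6 libraries with edgeR 4.0.16 under R 4.3.3 (quasi-likelihood test, TMM, filterByExpr with a minimum count of 10, legacy = FALSE, no replicate block) with Benjamini-Hochberg adjustment over all tested miRs. Standard errors and intervals are those implied by the F statistic. Ratios of strands used 0.5 counts as a pseudocount and exact permutation tests (scipy 1.17.1). Intervals of ratios of summed counts are exact Clopper-Pearson intervals, which cover counting error only. DESeq2 1.42.0 and limma 3.58.1 were alternatives. The fits with edgeR, DESeq2 and limma voom were tested on simulated data, and the exact permutation test on a made-up set of values.

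The miRs named are the 7 members, the family's other names, the 3p strands of miR-148, miR-152 and miR-19, the cell type markers with values of their own (named after their values were seen) and the 3 miRs closest to the most abundant member across libraries. The members and lists were chosen with earlier results of these data known. Sequences came from RefSeq (GRCh38.p14) and loci from GENCODE 29.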

Additional observations from a re-analysis of the deposited data

How the results depend on the processing

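None of the members tested was called under the 17 alternatives. These tested the same number of members as the report, 6, except that requiring a mean of at least 100 counts left 2 (miR-130b-5p and miR-454-3p), and that the fits without a filter and with DESeq2's default filtering fitted all 7, the latter giving no adjusted p for miR-301a-3p and the lower miR-130a-3p. The number of miRs called over the whole table, 18, was 28 with total counts, 31 without a filter, 34 with robust edgeR. Leaving out a library gave 4 to 29 (7 without RPL24 KD library 1, 4 without RPL24 KD library 2 and 29 without the unnumbered NC library). With the replicate number as a block, on the 4 numbered libraries, it was 52, and with the crossed replicate block, added after seeing the data, 35. Same-numbered libraries did not deviate together (correlation of deviations -0.14 for number 1 and 0.12 for number 2 over 360 miRs), so the numbers were not taken as pairs. For each of these, the cause was not tested.

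Values near 0 changed sign. MiR-130b-5p had 0.0019 with RLE, 0.0085 without a filter, 0.0019 with DESeq2 on the tested miRs, 0.014 under DESeq2's default filtering and from -0.030 to 0.043 without one library. MiR-301a-3p had 0.0020, 0.0070, 0.0063 and 0.021 in the same settings, 0.10 with the replicate block, 0.16 with the crossed replicate block and, leaving out a library, -0.24 to 0.20. Without one library miR-130b-3p ranged from 0.15 to 0.41, miR-301a-5p from -0.20 to 0.0011, miR-454-3p from -0.010 to 0.27 and miR-454-5p from -0.37 to -0.18. The difference in arm ratio ranged from 0.15 to 0.44 for miR-130b and from -0.14 to 0.32 for miR-301a. The ratio of miR-301a-3p to miR-454-3p ranged from -0.44 to 0.11 and was 0.040 with the replicate block, and that of miR-130b-3p to miR-130a-3p ranged from 0.31 to 1.40. MiR-19a-3p, whose alternatives were chosen after seeing the data, ranged from 0.23 to 0.30 without one library, and its call was also lost with legacy edgeR (adjusted p = 0.0579) and the crossed replicate block (adjusted p = 0.106). Depth limits miR-130a-3p and miR-301a-3p, with 10 and 69 counts over all libraries.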
